A study of Mus musculus with 7 samples.

Results

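HNF4a binding was described at the genes that drive and restrain the cell cycle and DNA replication in mouse liver. The 42 genes comprised the G1 cyclins and their kinases, the inhibitors of those kinases, the E2F factors with the retinoblastoma family, the replicative helicase with PCNA, the S phase and mitosis genes, and Myc and Brca1. Members were found as every region of the deposited ChIP-seq table that carries one of these gene names, at any distance and with any annotation. This gave 94 of the 39704 regions, at 32 of the 42 genes. The study measured HNF4a by chromatin immunoprecipitation and sequencing in livers of 3 AMPKCA mice, in which AMP-activated protein kinase (AMPK) is constitutively active, and 3 Wildtype mice. Both genotypes ate a high-fat diet that contained doxycycline for 14 days, so the diet and the drug do not separate them. The labels give neither age nor sex, and do not say which AMPK subunit was altered, which promoter or cell type drives it, or where doxycycline acts. Each of the 3 labelled batches held 1 library of each genotype, from separate animal codes, and replicate numbers below are batch numbers.

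HNF4a is a nuclear receptor that binds DNA as a homodimer and maintains the gene programme of the differentiated hepatocyte. Loss of Hnf4a from adult mouse liver is known to be followed by hepatocyte proliferation. AMPK is a sensor of cellular energy that restrains growth when energy is short. Entry into the cell cycle runs through D-type cyclins, which activate Cdk4 and Cdk6 and so release E2F factors from the retinoblastoma proteins. E2F factors then switch on genes of DNA replication, and B-type cyclins with Cdk1 later drive mitosis. Adult hepatocytes rarely divide, and many are polyploid, a state that in mouse depends on E2f7 and E2f8.

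HNF4a regions lay across the promoters of some of these genes and not of others. The 250 bases upstream of each RefSeq start site (GRCm38.p6, the same coordinates as mm10) were available for 30 of the 42 genes, as 36 windows. A region overlapped a window at 16 of these 30 genes (53.3%), against 7250 of all 27025 genes with such a window (26.8%). Those 27025 outnumber the 21896 RefSeq protein-coding genes, so they include other kinds of gene. No test was made of this share. The 5 windows below are shown because they lay under a region and held an E2F match, as did 1 further window, at Cdkn2c. Each is read 5′ to 3′ on the minus strand of its chromosome and ends at the base before the start site. They lie at chr13:29986064-29986313 for E2f3, chr7:48881597-48881846 for E2f8, chr10:69352913-69353162 for Cdk1, chr13:100786487-100786736 for Ccnb1 and chr5:138171267-138171516 for Mcm7. Capitals mark every match, on either strand, to CAAAGTC (one arm of the HNF4 motif), TTTGAA (the cell cycle homology region), CCAAT (the NF-Y box), and TTCCCGC or TTGGCGC (E2F).

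E2f3: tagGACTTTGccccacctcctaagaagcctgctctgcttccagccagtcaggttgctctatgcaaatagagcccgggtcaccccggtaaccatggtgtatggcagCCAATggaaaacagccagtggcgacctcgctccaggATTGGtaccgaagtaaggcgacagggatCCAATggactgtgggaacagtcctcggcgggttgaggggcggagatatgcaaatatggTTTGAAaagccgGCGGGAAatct

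E2f8: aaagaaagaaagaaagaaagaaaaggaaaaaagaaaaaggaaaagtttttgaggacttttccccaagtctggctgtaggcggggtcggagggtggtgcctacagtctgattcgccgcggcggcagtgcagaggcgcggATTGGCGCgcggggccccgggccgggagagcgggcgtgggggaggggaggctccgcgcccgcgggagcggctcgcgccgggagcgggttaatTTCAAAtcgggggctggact

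Cdk1: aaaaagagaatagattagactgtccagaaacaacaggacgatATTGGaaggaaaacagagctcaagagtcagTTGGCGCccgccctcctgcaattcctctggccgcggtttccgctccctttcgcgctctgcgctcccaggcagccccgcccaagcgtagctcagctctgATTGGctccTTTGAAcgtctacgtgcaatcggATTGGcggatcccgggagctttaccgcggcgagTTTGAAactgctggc

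Ccnb1: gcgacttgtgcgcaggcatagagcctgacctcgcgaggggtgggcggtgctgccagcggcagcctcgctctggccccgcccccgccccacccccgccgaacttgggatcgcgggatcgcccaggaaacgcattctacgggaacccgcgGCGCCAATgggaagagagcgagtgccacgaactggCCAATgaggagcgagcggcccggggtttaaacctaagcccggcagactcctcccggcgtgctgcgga

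Mcm7: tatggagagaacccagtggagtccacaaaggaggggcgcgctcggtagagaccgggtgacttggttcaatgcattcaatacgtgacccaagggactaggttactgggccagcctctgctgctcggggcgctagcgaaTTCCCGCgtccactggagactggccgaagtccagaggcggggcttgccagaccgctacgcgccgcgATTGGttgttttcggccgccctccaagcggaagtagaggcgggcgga

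In the E2f8 and Ccnb1 windows the CCAAT and E2F matches overlap, since the reverse complement of CCAAT shares bases with TTGGCGC, so their capitals hold both in 1 run. Among these 5, the E2f3 window alone held the HNF4 arm, at its far upstream end. Over the 36 windows, the HNF4 arm was found in 3 (8.33%), at Cdk4, E2f3 and Mcm2, against 3.84% of all 32851 windows. The cell cycle homology region was matched in 25.0% of the 36 and 15.99% of all, CCAAT in 63.9% and 33.8%, and E2F in 33.3% and 5.62%. Within the 18 windows that a region overlapped, E2F matches stood at 33.3%, against 10.4% of the 8318 such windows in all. The HNF4 arm was in 1 of these 18, at E2f3 (5.56%), against 4.05%. A match is a run of letters and not a measured binding site.

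The libraries held 692813 to 1207609 reads in regions for AMPKCA and 536027 to 1622087 for Wildtype, and the members took 0.215% to 0.243% and 0.206% to 0.267% of them. Values below are the deposited normalized reads per region, each a whole number of reads times a constant of its library. The median log2 fold change over all regions was 0.01, and with each library scaled in this way a change of binding shared by all regions cannot be measured. Region coordinates are mm10. Wildtype replicate 1 stood apart from the other libraries, with 19.4% of its reads in promoter regions, against 11.7% to 14.2% in the AMPKCA libraries and 12.1% and 13.4% in the other Wildtype libraries. Of the hepatocyte genes listed to check the tissue, 13 of 13 had a region, with a median of 83.4 normalized reads at the strongest. The medians were 24.7 for the 5 of 7 listed cholangiocyte genes with a region, Spp1 among them, and 37.0 for the 5 of 9 listed genes of other non-parenchymal cells, led by Stab2 and Lyve1. Apob, the apolipoprotein of very-low-density lipoprotein, averaged 156. No region of these lists was called by limma, and with batch as a block 3 regions of Alb rose in AMPKCA, at log2 fold changes of 2.55, 1.86 and 1.75.

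A region was assigned to 76.2% of the members, against 54.6% of 21896 RefSeq protein-coding genes, a share that was not tested. The median number per gene with a region was 2 for both the members and all genes, and 18.8% of these members and 18.0% of all genes had 5 or more. E2f8 had 9 regions, Ccnd1 and Cdk1 had 8 each, E2f7 had 7, and Cdk6 and E2f2 had 5 each. The median region level was 16.4 normalized reads, against 17.4 over all regions, and 31.5 per kb of region against 33.3. Intergenic regions made up 44.7% of the members' regions and 31.3% of all, introns 28.7% and 44.9%, exons 9.57% and 8.84%, and promoters 15.96% and 13.2%.

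The 10 genes with no assigned region were Ccna2, Cdk4, E2f4, Mcm2, Mcm3, Mcm4, Top2a, Aurka, Pcna and Foxm1. At 5 of them a region overlapped the RefSeq gene but carried a neighbour's name. In Cdk4 and Foxm1 that region lay wholly inside the gene, averaging 19.5 normalized reads in Cdk4 (named for Tspan31) and 17.8 in intron 4 of Foxm1 (4933413G19Rik). At the other 3 only part of the region lay inside the gene. At the end of E2f4 this was 87 of 962 bp (Elmo3, 25.2 reads). It was 99 of 807 bp at the start of Mcm4 (Prkdc, 16.6) and 52 of 541 bp at the start of Aurka (Cstf1, 20.9). The Mcm4 and Aurka regions are annotated to the promoters of Mcm4 and Aurka, though named for neighbours. The other 5 genes overlapped none. Their nearest region lay 3448 bp away for Mcm2, 9627 bp for Pcna (the sliding clamp of the replication fork), 10675 bp for Top2a, 31477 bp for Ccna2 and 70134 bp for Mcm3. The gene span of Rb1 overlapped 7 regions, of which 1 carries its name.

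**Figure D1:**
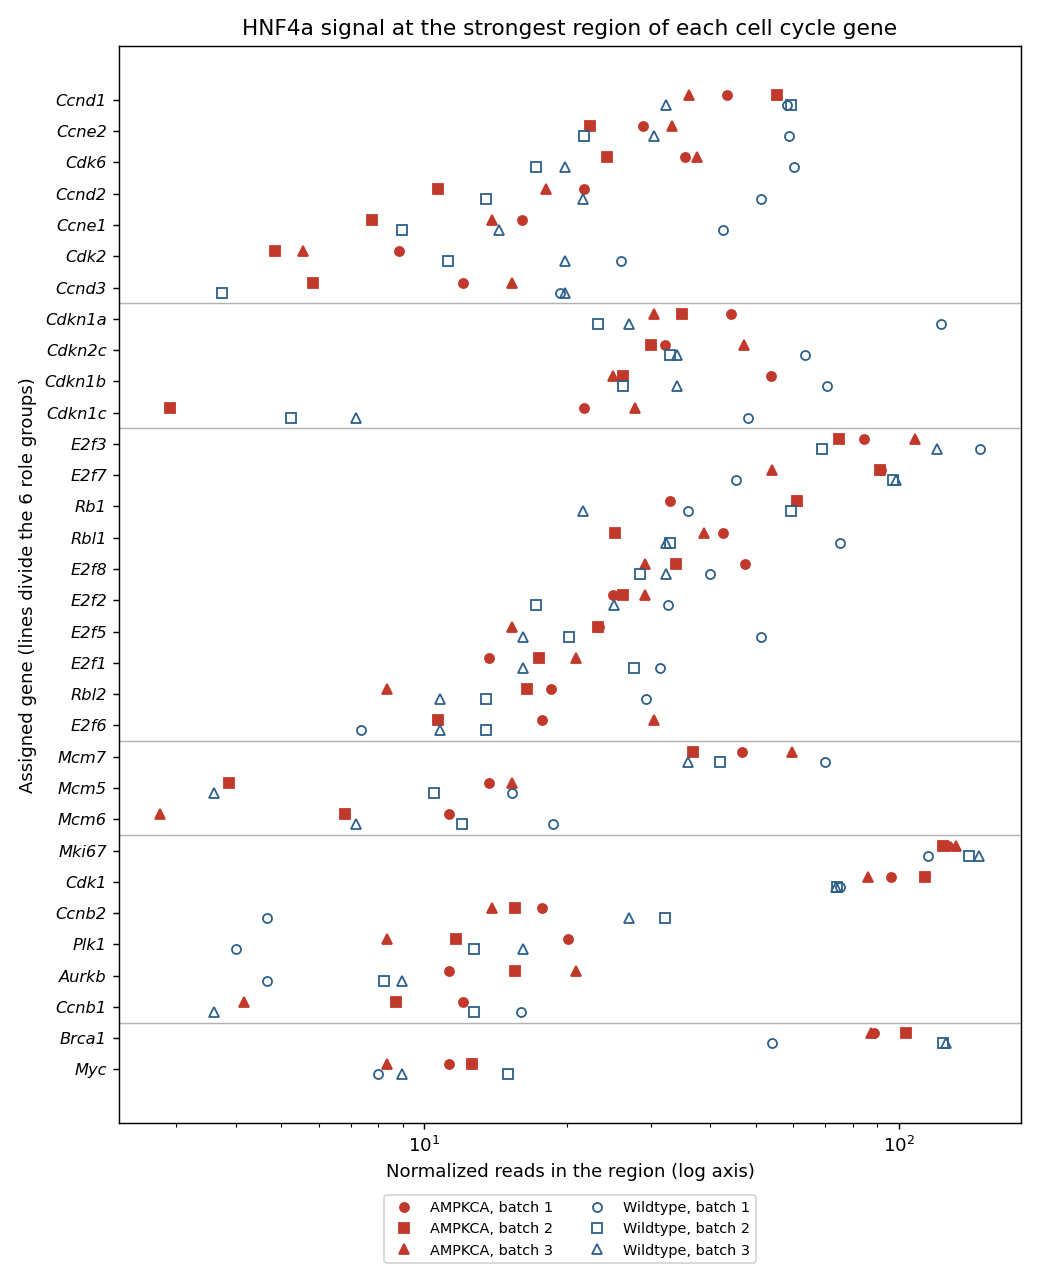
Normalized reads (log axis) at the most strongly bound region of each of the 32 genes, 1 row per gene, with filled red symbols for AMPKCA and open blue ones for Wildtype and the symbol shape giving the batch. The open circle of Wildtype batch 1 lies at the right of many rows, and in the rows of Cdk1, Aurkb and Cdk2 the red and blue symbols do not overlap.

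No region of these genes separated the genotypes by limma at an adjusted p under 0.05 over all 39704 regions. The count was 0 of 94, with a background of 0% of all regions, and it was also 0 by edgeR and by DESeq2 on the recovered reads. At an unadjusted p under 0.05, 2 regions were higher in AMPKCA (background 1.46%) and 2 were lower (0.995%). With batch as a block, limma called 1 region, in exon 10 of Brca1 (background 0.0579%), and edgeR called the same one (0.063%), while 3 were higher and 4 lower at an unadjusted p under 0.05 (4.11% and 3.16%). The groups did not overlap at 6 regions that were higher in AMPKCA (background 4.64%) and 2 that were lower (3.27%). All 3 within-batch differences were higher in AMPKCA at 9 regions (13.5%) and lower at 15 (14.6%). As shares of 94 these 4 counts are 6.38%, 2.13%, 9.57% and 15.96%, near the shares of all regions. Log2 fold changes were above 0 at 46 regions and below at 48, with a median of -0.01, against 0.01 over all regions. In whole liver, fewer cells with binding and less binding per cell cannot be told apart. Without the block, limma took each region's scatter from the 6 libraries, within each genotype. With the block, it took the scatter of the 3 within-batch differences. In both fits this scatter was pulled toward a trend of variance with mean level over all 39704 regions. No limma p-value therefore rests on the scatter of its own region alone.

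**Figure D2:**
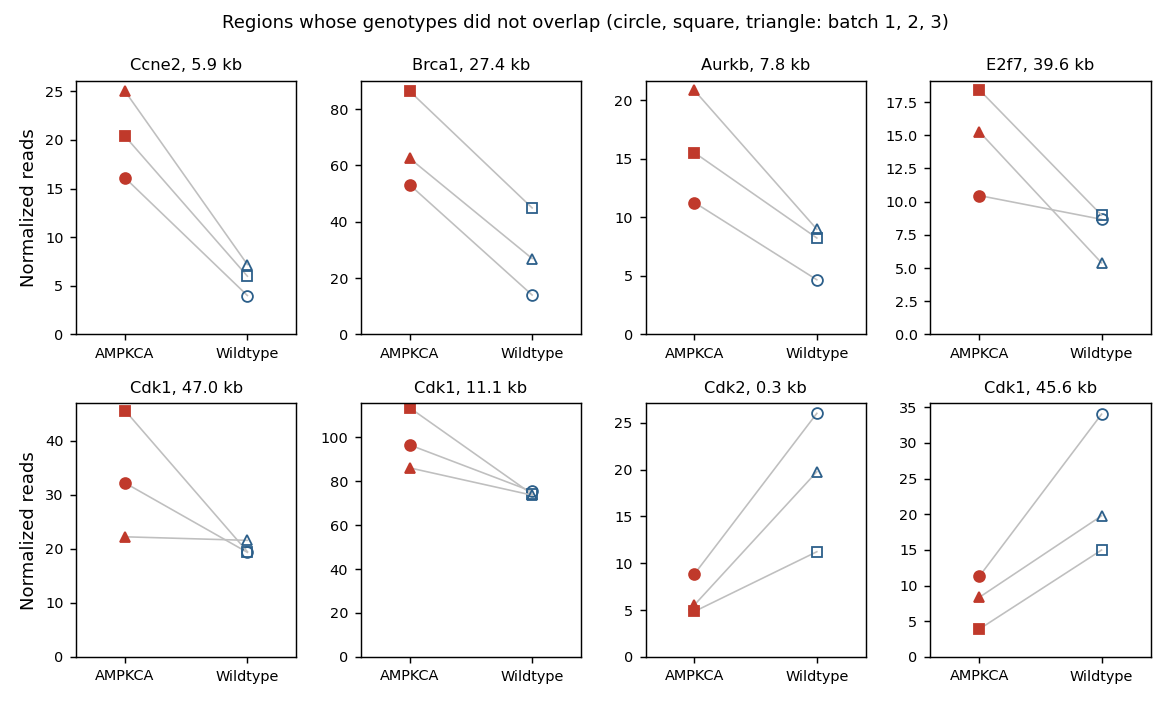
Normalized reads in AMPKCA (left) and Wildtype (right) at the 8 regions whose genotypes did not overlap, with the batch given by symbol shape, grey lines joining libraries of 1 batch, and the distance to the start site in each title. All vertical axes start at 0, and in 6 panels every AMPKCA library lies above every Wildtype library.

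Among the G1 cyclins and kinases, 7 of 8 genes had regions, 26 in all, and none passed the adjusted threshold. Ccne2, cyclin E2, which activates Cdk2 at the start of S phase, had the region with the largest positive fold change of the 94. It lies 5.92 kb upstream in intergenic sequence (chr4:11185633-11185940). The AMPKCA libraries had 16.1, 20.4 and 25.0 normalized reads there, from 20, 21 and 18 reads, and the Wildtype libraries had 4.002, 5.99 and 7.19, from 6, 8 and 4 reads. Every AMPKCA library lay above every Wildtype library, with within-batch log2 differences of 1.63, 1.51 and 1.58. The log2 fold change was 1.57 with a standard error of 0.50 (limma adjusted p = 1.00, unadjusted p = 0.00479), and the adjusted p with the batch block was 0.313. The promoter region of Ccne2 did not repeat this: it had 29.0, 22.3 and 33.3 in AMPKCA, against 58.7, 21.7 and 30.6 in Wildtype, a log2 fold change of -0.27. There only the batch 1 Wildtype library stood above the rest.

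Cdk2, the kinase partner of cyclin E, had 1 region, in its exon 1 (chr10:128704473-128704981), and it ran the other way. It held 8.85, 4.85 and 5.56 normalized reads in AMPKCA, from 11, 5 and 4 reads, against 26.0, 11.2 and 19.8 in Wildtype, from 39, 15 and 11 reads. All AMPKCA libraries lay below all Wildtype libraries. The means were 6.42 ± 2.14 in AMPKCA and 19.0 ± 7.42 in Wildtype (SD, n = 3 each), a log2 fold change of -1.30 with a standard error of 0.52 (limma adjusted p = 1.00; 0.471 with the batch block).

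Ccnd1, the D-type cyclin of the early G1 response, had 8 regions and none within 1 kb of its start site. Its strongest, 104 kb upstream (chr7:145043341-145044042), had 43.5, 55.3 and 36.1 in AMPKCA, against 58.0, 59.2 and 32.4 in Wildtype, and the groups overlapped. Ccnd2, a related D-type cyclin, had 21.7, 10.7 and 18.1 in AMPKCA, against 51.4, 13.5 and 21.6 in Wildtype, 0.625 kb into the gene. Its AMPKCA value was the smaller one in each batch, with most of the gap in batch 1 (log2 differences of -1.18, -0.29 and -0.23). Ccne1, cyclin E1, showed the same order in intron 1, with 16.1, 7.76 and 13.9 in AMPKCA, against 42.7, 8.99 and 14.4 in Wildtype. Its second region within 1 kb had a log2 fold change of 0.04.

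Cdk6, the kinase bound by D-type cyclins, had its strongest region in exon 1 (chr5:3344112-3344849). The AMPKCA values were 35.4, 24.3 and 37.5 and the Wildtype values 60.03, 17.2 and 19.8, so AMPKCA was the lower one in batch 1 and the higher one in batches 2 and 3. A weaker Cdk6 region 2.86 kb upstream had 21.7, 7.76 and 11.1 in AMPKCA, against 28.7, 13.5 and 30.6 in Wildtype, lower in each batch (adjusted p with the block 0.687). Ccnd3, the third D-type cyclin, had 12.1, 5.82 and 15.3 in AMPKCA, against 19.3, 3.74 and 19.8 in Wildtype, and its groups overlapped.

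The kinase inhibitors Cdkn1a, Cdkn1b, Cdkn1c and Cdkn2c had 11 regions, none of them called. Cdkn1a, which encodes p21 and is a main target of p53, was bound in intron 1 (chr17:29094312-29095112). It had 44.3, 34.9 and 30.6 normalized reads in AMPKCA, against 122.7, 23.2 and 26.96 in Wildtype. The whole gap came from Wildtype replicate 1, and the AMPKCA libraries were the higher ones in batches 2 and 3. The means of 36.6 ± 7.002 in AMPKCA and 57.6 ± 56.4 in Wildtype (SD, n = 3 each) carry that 1 library in the Wildtype spread. Its promoter region, 0.118 kb upstream, had 17.7, 8.73 and 18.1 in AMPKCA, against 29.4, 5.24 and 5.39 in Wildtype, again with the batch 1 Wildtype library on top.

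Cdkn1b, which encodes p27, was bound in exon 1 over 1612 bp. It had 53.9, 26.2 and 25.0 in AMPKCA, against 70.7, 26.2 and 34.2 in Wildtype, with log2 differences of -0.38 and -0.42 in batches 1 and 3 and near-equal values in batch 2. Cdkn2c, which encodes the p18 inhibitor of Cdk4 and Cdk6, had 32.2, 30.1 and 47.2 in AMPKCA, against 63.4, 32.9 and 34.2 in Wildtype, at a region 7.77 kb from its start site. In both genes the groups overlapped. Cdkn1c, the imprinted gene of p57, was the most uneven of the 4, with 21.7, 2.91 and 27.8 in AMPKCA, against 48.0, 5.24 and 7.19 in Wildtype.

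The E2F factors and the retinoblastoma family held 33 regions at 10 of 11 genes, and none was called. E2f3, an activating E2F, had the widest member region, 2991 bp over its first exon and the promoter printed above (chr13:29984056-29987046). Its values were 84.5, 74.7 and 108.3 in AMPKCA, against 148.1, 68.9 and 120.4 in Wildtype. The groups overlapped, with a log2 fold change of -0.28 and a standard error of 0.29. Per kb of region it averaged 33.7 normalized reads and stood 15th of the 32 strongest regions, while its undivided value was the second highest. A second E2f3 region, in intron 1 (chr13:29944472-29945756), averaged 68.0 per kb, with 88.5, 98.0 and 87.5 in AMPKCA, against 78.7, 92.1 and 79.1 in Wildtype. AMPKCA was the higher one in each batch there, by little (log2 fold change 0.13).

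E2f7 and E2f8, the atypical E2F repressors, had 16 regions between them, and the strongest of each lay outside the gene. The strongest E2f7 region, 49.2 kb from the start site and 6966 bp past the end of the gene (chr10:110794350-110794930), averaged 137 normalized reads per kb, second among the 32. It had 91.8, 91.2 and 54.2 in AMPKCA, against 45.4, 97.3 and 98.9 in Wildtype, so that batch 1 and batch 3 differed in opposite directions. A weaker E2f7 region, 39.6 kb upstream (chr10:110705655-110706010), had 10.5, 18.4 and 15.3 in AMPKCA, against 8.67, 8.99 and 5.39 in Wildtype, with no overlap (log2 fold change 0.79, standard error 0.52, limma adjusted p = 1.00).

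The strongest E2f8 region lay 165 kb away, inside an intron of Nav2, with 47.5, 34.0 and 29.2 in AMPKCA, against 40.02, 28.5 and 32.4 in Wildtype. At the E2f8 promoter 2 adjacent regions gave unlike values. The one over the printed window (chr7:48881585-48882224) had 12.1, 8.73 and 15.3 in AMPKCA, against 32.0, 14.98 and 26.96 in Wildtype, lower in each batch, with a log2 fold change of -0.90 and a standard error of 0.45 (limma adjusted p = 1.00; 0.629 with the batch block). Its neighbour (chr7:48880718-48881500) had 22.5, 16.5 and 23.6 in AMPKCA, against 42.0, 11.2 and 16.2 in Wildtype, with a log2 fold change of 0.05.

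E2f1, the first-described activating E2F, had 13.7, 17.5 and 20.8 at its promoter in AMPKCA, against 31.4, 27.7 and 16.2 in Wildtype, and the groups overlapped. E2f2, a further activator, had 24.9, 26.2 and 29.2 in AMPKCA, against 32.7, 17.2 and 25.2 in Wildtype, with overlapping groups. That region is annotated to an E2f2 promoter and lies 7.865 kb from the assigned start site. E2f5, a repressor that works with the retinoblastoma-like proteins, had 23.3, 23.3 and 15.3 in AMPKCA, against 51.4, 20.2 and 16.2 in Wildtype. E2f1, E2f2 and E2f5 each had their highest value in Wildtype replicate 1. E2f6, a repressor that does not need retinoblastoma proteins, differed by region: 30.3 kb away it had 17.7, 10.7 and 30.6 in AMPKCA, against 7.34, 13.5 and 10.8 in Wildtype, and at exon 1 it had 10.5, 4.85 and 4.17 in AMPKCA, against 27.3, 8.24 and 10.8 in Wildtype. The log2 fold changes of these regions were 0.72 and -0.97, with standard errors of 0.49 and 0.60.

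Rb1, the retinoblastoma gene that holds E2F factors in check, was bound in intron 4 (chr14:73293709-73294411). It had 33.0, 61.1 and 61.1 in AMPKCA, against 36.0, 59.2 and 21.6 in Wildtype, so that the gap came from batch 3. Its relative Rbl1, which encodes p107, had 42.7, 25.2 and 38.9 at its promoter in AMPKCA, against 75.4, 32.9 and 32.4 in Wildtype. Rbl2, which encodes p130, had 18.5, 16.5 and 8.33 in AMPKCA, against 29.4, 13.5 and 10.8 in Wildtype. All 3 sets of groups overlapped.

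The replicative helicase was the group with the fewest assigned regions. Of the 6 helicase subunits and Pcna, Mcm5, Mcm6 and Mcm7 had 1 assigned region each, and none was called. The region annotated to the Mcm4 promoter carries the name of Prkdc and is not counted here. Mcm7 was bound across its start, in a region annotated to the promoter of the neighbouring Ap4m1 and over the window printed above, with 46.7, 36.9 and 59.7 in AMPKCA, against 70.0, 41.9 and 35.9 in Wildtype (log2 fold change -0.01, standard error 0.34). Mcm6 had 11.3, 6.79 and 2.78 in AMPKCA, against 18.7, 12.0 and 7.19 in Wildtype, lower in each batch but from as few as 2 reads in a library. Mcm5 had 13.7, 3.88 and 15.3 in AMPKCA, against 15.3, 10.5 and 3.59 in Wildtype, 3.07 kb upstream. The Mcm7 groups overlapped, as did those of Mcm5 and Mcm6.

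The S phase and mitosis genes held 16 regions at 6 of 10 genes, with no call. Cdk1, the mitotic kinase, had 8 of them, and at 4 of the 8 the within-batch differences had 1 sign. In intron 5 (chr10:69341366-69342246), its strongest, it had 96.6, 113.5 and 86.1 in AMPKCA, against 75.4, 74.1 and 73.7 in Wildtype. All AMPKCA libraries lay above all Wildtype libraries, and the Wildtype values were almost equal, at 74.4 ± 0.871 (SD, n = 3). The log2 fold change was 0.39 with a standard error of 0.26 (limma adjusted p = 1.00; 0.747 with the batch block). A region 47.0 kb beyond the start site (chr10:69305568-69306256) had 32.2, 45.6 and 22.2 in AMPKCA, against 19.3, 19.5 and 21.6 in Wildtype, also without overlap.

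Upstream and at the start of Cdk1 the order turned round. The region 45.6 kb upstream (chr10:69397909-69399111) had 11.3, 3.88 and 8.33 in AMPKCA, against 34.0, 14.98 and 19.8 in Wildtype, with no overlap and a log2 fold change of -1.37 (standard error 0.51, limma adjusted p = 1.00; 0.369 with the batch block). The start site region, over the printed window, had 21.7, 6.79 and 4.17 in AMPKCA, against 35.4, 9.73 and 14.4 in Wildtype, lower in each batch, with overlapping groups (log2 fold change -0.84, standard error 0.57). The other 4 Cdk1 regions had log2 fold changes between 0.04 and 0.07.

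Mki67, which encodes the proliferation marker Ki-67, carried the strongest region of all 94, at 131 normalized reads on average and 156 per kb. It lies 269.9 kb upstream (chr7:135985837-135986677), and it stood at rank 252 of all 39704 regions by mean level. The AMPKCA libraries had 127.2, 124.2 and 132.0 and the Wildtype libraries 115.4, 140.8 and 147.4. The groups overlapped, with a log2 fold change of -0.07 and a standard error of 0.23, the smallest of the 94. Aurkb, the kinase of the chromosomal passenger complex, had 1 region, 7.80 kb upstream (chr11:69037581-69038108). It had 11.3, 15.5 and 20.8 in AMPKCA, against 4.67, 8.24 and 8.99 in Wildtype. The groups did not overlap, at a log2 fold change of 0.96 with a standard error of 0.52 (limma adjusted p = 1.00; 0.676 with the batch block).

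Ccnb1 and Plk1 were weakly bound, and the strongest region of Ccnb2 averaged 18.5 normalized reads, close to the 17.4 of the median region. Ccnb1 had 12.1, 8.73 and 4.17 at its promoter, printed above, in AMPKCA, against 16.01, 12.7 and 3.59 in Wildtype, the lowest mean of the 32 strongest regions. Ccnb2 had 17.7, 15.5 and 13.9 in AMPKCA, against 4.67, 32.2 and 26.96 in Wildtype, 25.1 kb away. Plk1, the mitotic polo-like kinase, had 20.1, 11.6 and 8.33 in AMPKCA, against 4.002, 12.7 and 16.2 in Wildtype. In Ccnb2 and Plk1 the batch 1 Wildtype library was the lowest of the 6, the reverse of its place at promoters.

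Brca1, a DNA repair gene that is itself induced in S phase, had the 1 region called in any of these fits. The region lies in exon 10, 27.4 kb from the start site (chr11:101524307-101524875, 569 bp). The AMPKCA libraries had 53.1, 86.4 and 62.5 normalized reads, from 66, 89 and 45 reads, and the Wildtype libraries had 14.0, 44.9 and 26.96, from 21, 60 and 15 reads. Every AMPKCA library lay above every Wildtype library. The means were 67.3 ± 17.1 in AMPKCA and 28.6 ± 15.5 in Wildtype (SD, n = 3 each), a ratio of 2.35, with within-batch log2 differences of 1.80, 0.92 and 1.16.

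The call depended on the batch block and on how the spread was modelled. The log2 fold change was 1.29, with a standard error of 0.38 without the block (limma adjusted p = 1.00, unadjusted p = 0.00251) and 0.30 with it (adjusted p = 0.030). EdgeR with the block gave an adjusted p of 0.041. Without the mean-variance trend, blocked limma gave 0.666, and DESeq2 with the block gave 1.00. Leaving out batch 1, 2 or 3 gave 0.207, 0.553 or 0.431 with the block, at log2 fold changes of 1.04, 1.48 and 1.36.

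The neighbouring Brca1 region, in intron 11 (chr11:101519105-101519875), was the stronger of the pair and did not follow. It had 88.5, 103.8 and 87.5 in AMPKCA, against 54.0, 124.3 and 125.8 in Wildtype, and its log2 fold change was -0.03 with a standard error of 0.30. Myc, a growth-promoting transcription factor, had 3 weak regions. The strongest, 1.93 kb upstream, had 11.3, 12.6 and 8.33 in AMPKCA, against 8.005, 14.98 and 8.99 in Wildtype, and the one 0.909 kb upstream had 3.22, 9.70 and 15.3 in AMPKCA, against 17.3, 12.0 and 3.59 in Wildtype. Neither separated the groups.

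Per kb of region, the order of the strongest regions began with Mki67 (156 normalized reads per kb), E2f7 (137), Brca1 (126), Cdk1 (98.3), Ccnd1 (67.5), Rb1 (64.5) and E2f6 (59.9). Each of the first 4 lies over 10 kb from a start site, and the lowest places were held by Cdkn1c (17.2), Ccnb1 (15.97) and Ccnd2 (15.1). The strongest region lay within 1 kb of a start site in 16 of the 32 genes and beyond 50 kb in 3, Mki67, E2f8 and Ccnd1. Their median was 25.4 normalized reads, against 25.9 for the strongest regions of all genes.

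**Figure D3:**
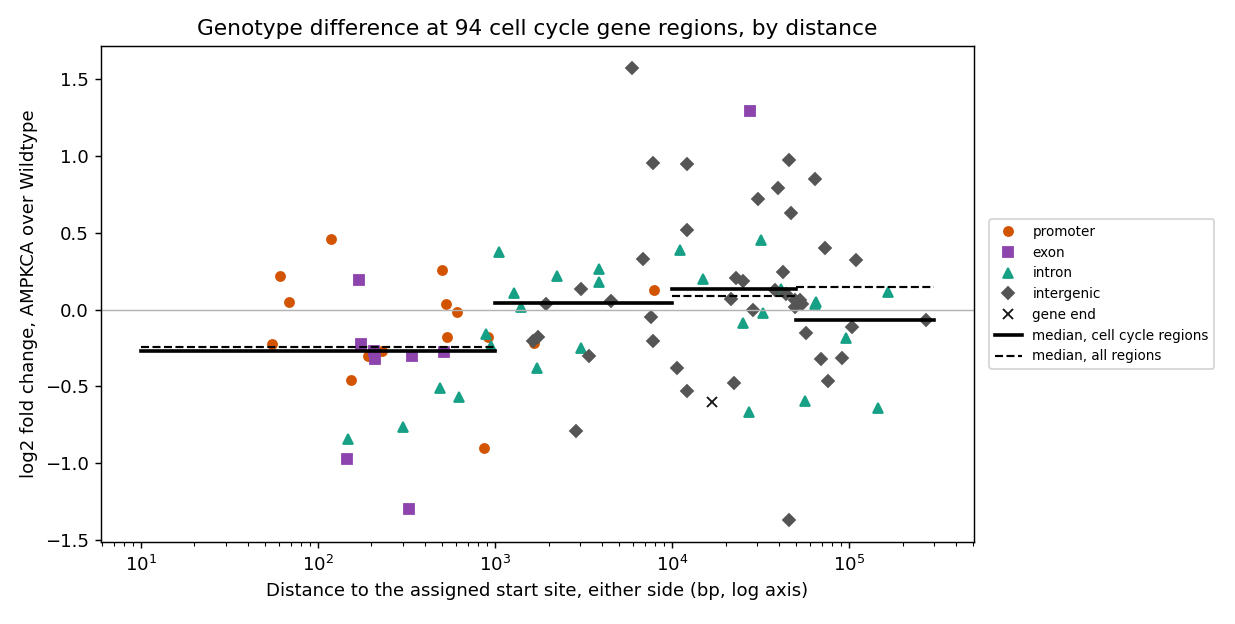
Log2 fold change of AMPKCA over Wildtype at the 94 regions (vertical axis) by distance to the assigned start site in bp (log axis), with symbols by annotation, solid bars for the median of the cell cycle regions in each distance class and dashed bars for all regions. Most symbols within 1 kb lie below 0, where the medians are -0.27 and -0.24.

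Near start sites most fold changes were below 0, both for these genes and for the whole table. Within 1 kb, 21 of the 27 member regions had a log2 fold change below 0, with a median of -0.27, against -0.24 over all 9224 such regions, of which 24.8% were above 0. At 1 to 10 kb the median was 0.04, at 10 to 50 kb 0.13 and beyond 50 kb -0.07, against 0.04, 0.09 and 0.15 over all regions. The near-site medians by batch were -0.80, -0.17 and 0.12 for the members and -0.62, -0.07 and -0.09 for all regions. Batch 1 therefore held most of the gap. Wildtype replicate 1 was the highest of the 6 libraries at 25 of the 27 near regions (92.6%), against 75.7% of all near regions. The exceptions were Ccnd3 and Plk1, where Wildtype replicate 3 was highest.

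A further 5 near-site regions were not given above, and in all 5 the groups overlapped. Cdkn1c had 13.7, 5.82 and 15.3 normalized reads in exon 2 in AMPKCA, against 28.0, 8.24 and 10.8 in Wildtype. Cdkn2c had 23.3, 7.76 and 15.3 at 0.502 kb upstream in AMPKCA, against 32.7, 5.99 and 7.19 in Wildtype, and Ccne1 had 24.1, 6.79 and 19.4 at 0.525 kb upstream in AMPKCA, against 30.02, 6.74 and 14.4 in Wildtype. The batch 1 Wildtype library was highest in these 3 regions and in the next. Cdk6 had 12.9, 0.970 and 12.5 at 0.537 kb upstream in AMPKCA, against 22.0, 1.498 and 8.99 in Wildtype, with a single read in AMPKCA replicate 2. Plk1 had 10.5, 6.79 and 13.9 at its promoter in AMPKCA, against 11.3, 2.25 and 17.97 in Wildtype, where the batch 3 Wildtype library was highest.

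Without batch 1 the members' near-site median was 0.02, with 14 above 0 and 13 below, against -0.08 for all near regions. Without Wildtype replicate 1 alone it was 0.15, against 0.03. Over the 32 strongest regions, 12 were above 0 and 20 below, with a median of -0.10, against -0.05 for all genes' strongest regions. Their medians by batch were -0.49, -0.12 and 0.04. That median was 0.01 without batch 1, with 16 on each side, and 0.11 without Wildtype replicate 1.

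**Figure D4:**
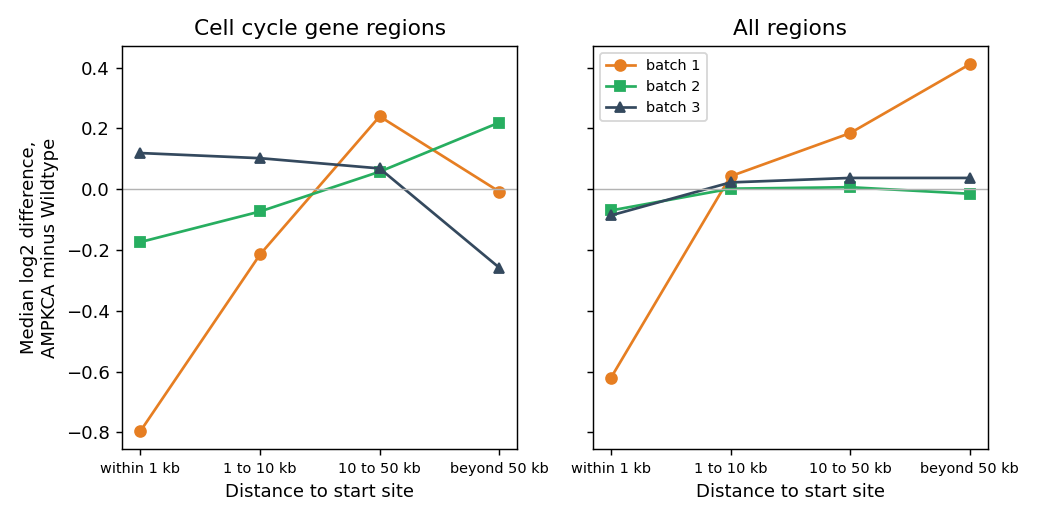
Median log2 difference of AMPKCA minus Wildtype within each labelled batch (lines, by colour and symbol), by distance to the start site (horizontal axis, 4 classes), for the 94 cell cycle regions (left) and all 39704 regions (right). Batch 1 lies at -0.80 and -0.62 within 1 kb, while batches 2 and 3 stay between -0.17 and 0.12 there.

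The other genes of the pathway gave no call. Of 96 such genes, 66 had a region, 136 in all, and 0 regions passed the adjusted threshold by limma with or without the block. At an unadjusted p under 0.05, 2 of the 66 strongest regions passed without the block (3.03%, background 2.81% of the strongest regions of all 13644 genes) and 6 with it (9.09%, background 8.57%). Their log2 fold changes were above 0 in 24 and below in 42, with a median of -0.23, which was -0.13 without batch 1 and 0.01 without Wildtype replicate 1, when 33 lay above 0 and 33 below.

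Origin licensing and firing genes had regions at 12 of 21, led by Mcm10, an initiator of replication. Mcm10 had 142, 136 and 139 normalized reads in AMPKCA, against 113, 159 and 137 in Wildtype, in its intron 14, and Orc3, an origin recognition subunit, averaged 30.9. Replication fork and nucleotide supply genes had regions at 15 of 23, led by Tk1 (thymidine kinase, 78.4 on average) and Rfc1 (the large subunit of the clamp loader). The Rfc1 region, 4.71 kb upstream, had 78.1, 92.2 and 70.8 in AMPKCA, against 15.3, 74.1 and 48.5 in Wildtype, a log2 fold change of 1.02 with a standard error of 0.40 (limma adjusted p = 1.00; 0.167 with the batch block). AMPKCA was the higher one in each batch, with overlapping groups and most of the gap in batch 1.

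Mitosis and checkpoint genes had regions at 17 of 24, led by the centrosomal kinase Nek2 (130 on average) and Incenp (64.6), and their strongest regions had a median log2 fold change of -0.15. Further kinase inhibitors with p53 and retinoblastoma partners had regions at 16 of 20, led by Skp2 (94.3), the ubiquitin ligase subunit that targets p27, and the E2F partner Tfdp2 (70.8), with a median of -0.21. Repair partners of Brca1 had regions at 6 of 8, led by Bard1 (67.4, log2 fold change 0.08), the binding partner of Brca1. The median of this list was -0.50, with 2 above 0 and 4 below. Brca2, Brip1 and Rbbp8, all lower in AMPKCA, had an unadjusted limma p under 0.05 with the batch block. These were 3 of the 6 (background 8.57%), a share that was not tested. The medians were -0.35 for licensing and firing and -0.03 for the fork and nucleotide supply genes. In every one of these 5 lists more strongest regions lay below 0 than above, and over the 66 the share above was 36.4%, against 44.7% for the strongest regions of all genes, a difference that was not tested.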

How the data were processed

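ChIP-seq of HNF4a was done on whole liver of 3 AMPKCA and 3 Wildtype mice; the pooled input was not analysed here. Per the submitters' processing notes, BWA with GRCm38 and mm10, Trim Galore and FastQC, SAMtools with Picard, and HOMER, MACS2, SICER and deepTools were used; the sources used here do not say how regions were picked. The labels' protocols name 2 library kits without saying which library had which. The deposited table gives, per the file headers, a normalized read signal per region and library, a region's gene and its distance to a start site. All values (100%) were whole multiples of 1 read within 1e-09, so whole reads were recovered, and total depth outside regions is unknown. Values are not divided by length unless given per kb. The lowest chi-square per degree of freedom over the 15 library pairs was 1.55, so no 2 libraries agreed within sampling noise.

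The test was limma 3.58.1 (R 4.3.3) with its trend and robust options, on log2(value + 1.80), where 1.80 is 0.1 times the median of non-zero values, over all 39704 regions with Benjamini-Hochberg adjustment at 0.05. Fold changes are on this scale, which understates those of weak regions. The unit was a signal, so edgeR 4.0.16 (quasi-likelihood) and DESeq2 1.42.0 on recovered reads were alternatives. Limma and edgeR, each with and without the block, and DESeq2 without it were tested on simulated data that held no batch effect. The other alternatives were not tested in this way. Labelled batch pairs the libraries; same-batch deviations correlated with r of 0.53, 0.49 and 0.05, so blocked values stand beside results whose call they change. Alternatives were the block, each library or batch left out, pseudocounts, a filter on means, other scalings and no trend. Named regions were those called in either limma fit, the strongest regions, those within 1 kb, and the 2 most strongly bound genes of each other list, some of which are not reported here; other regions named for non-overlapping groups were chosen after their values were seen. Members and lists were chosen with earlier results of these data known. Sequences are RefSeq's.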

Additional observations from a re-analysis of the deposited data

How the results depend on the processing

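Of the 94 cell cycle regions, 0 passed by limma, and the count moved to 1 under the batch (replicate) block, under edgeR with the block, and, in alternatives chosen after seeing the data, under the block with equal library totals, with a pseudocount 10 times smaller and with one 5 times larger. The region was Brca1 exon 10 each time, at blocked adjusted p between 0.017 and 0.042. The count was 0 with the block and no trend, under DESeq2 with the block, without any 1 batch, and without each library in turn (lowest 0, highest 0). The block changed no other member's call. The count for the other pathway genes was 0 in every alternative run. The median of the 32 strongest regions ranged from -0.31 under DESeq2 to 0.11 without Wildtype replicate 1, and was 0.01 with the block and no batch 1; the cause was not tested. Over 48 named regions and 1142 alternative values, 1084 lay within 1 SD of the region's within-batch differences, 53 moved further and 5 passed the threshold. The sign was opposite to the reported one in 116 of these values, at 32 regions, none of them called in any setting. Depth limits the weak regions: a member region held 40 to 824 reads over the 6 libraries. Groups of 3 were too small for a search for outlying libraries.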
